A study of Mus musculus with 8 samples.

Results

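The 10 genes studied here mark the primitive endoderm, and were followed in mouse embryonic stem cells after knockdown of Mkrn1, which encodes an RNA-binding E3 ubiquitin ligase. They were chosen by name as transcription factors (Gata6, Gata4, Sox17, Sox7, Foxa2, Foxq1 and Hnf4a) and as surface or endocytic markers (Pdgfra, Dab2 and Cubn), with no threshold on measured values. All 10 were measured among the 19937 genes of the array, each by the probe set with the highest mean. The shMKRN1 group was R1 cells transfected with pLKO.1 shMKRN1, and the shGFP group was R1 cells transfected with pLKO.1 shGFP, a hairpin against a jellyfish gene these cells lack. R1 is a male line of 129X1 x 129S1 background, derived from the inner cell mass. Both groups grew on gelatin in medium with 15% serum plus LIF; after 2 µg of plasmid they spent 4 days in puromycin and were lysed on day 6. Each group had 4 arrays, numbered 2, 4, 6 and 8 for shMKRN1 and 1, 3, 5 and 7 for shGFP. Mkrn1 was targeted with 1 hairpin only, and transfection was transient. Whether samples of one group came from separate transfections is not stated, and p-values therefore reflect only how far these samples differed, possibly for technical reasons. The 21-base sequence given for the knockdown hairpin is shown because it defines the shMKRN1 group.
shMKRN1: gcgagatgttgcttatgcttt

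The primitive endoderm is the sheet of cells that forms beside the epiblast in the blastocyst and gives rise to the visceral and parietal endoderm of the yolk sac. Epiblast precursors secrete FGF4, which acts through FGF receptors and ERK to raise GATA6 in neighbouring cells, while NANOG and GATA6 oppose each other. GATA6 acts upstream of PDGFRA, SOX17, GATA4 and SOX7, and stem cell cultures in serum and LIF are known to hold a minority of cells that drift towards this state. In bulk RNA, fewer cells of a type and less RNA per cell cannot be told apart.

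The knockdown and the identity of the cells were checked first. Mkrn1 stood at 9.84 ± 0.0364 in shMKRN1 arrays and 10.44 ± 0.0689 in shGFP arrays on the log2 scale (SD, n = 4 each), a change of -0.60 (SE 0.0521; limma adjusted p = 0.000767). All 10 stem cell markers, Pou5f1 and Sox2 among them, lay above 6.50, the level that 95% of 1190 olfactory and vomeronasal receptor genes did not reach. Those receptor genes serve as a guide to the level of genes that are silent in stem cells, although probe sets differ in how brightly they report the same amount of RNA. The 10 primitive endoderm genes had mean levels over the 8 arrays above 6.50, Sox17 only just. With the 99th percentile of the silent genes (7.28), 6 of the 10 were above it: Gata6, Gata4, Foxa2, Hnf4a, Dab2 and Cubn. Afp and Ttr, secreted products of mature visceral endoderm, lay below 6.50 in every array, with means of 6.00 and 5.38 in shMKRN1 and 5.95 and 5.57 in shGFP. Of all 8 arrays, shGFP 7 and shMKRN1 8 stood apart most within their groups, on a component that held 54.0% of the within-group variance, and results are given with and without them where they differ.

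None of the 10 genes passed the test between shMKRN1 and shGFP. Across all genes, 4.49% passed limma at an adjusted p of 0.05 (3.66% higher and 0.838% lower in shMKRN1, 729 and 167 genes), so a count of 0 among 10 is near the background. The split of all calls between higher and lower depended on scaling, with 617 higher and 431 lower after quantile normalization and 445 and 192 after median centring. The lowest adjusted p among the 10 members was 0.253 and the highest 0.985, and 1 gene, Foxa2, had an unadjusted p under 0.05, as did 19.5% of all genes. For no member did the 4 shMKRN1 arrays and the 4 shGFP arrays separate. Since 14.1% of all genes showed no overlap, this count of 0 among 10 is also near the background. The mean was higher in shMKRN1 for 9 of the 10, against 52.8% of all genes, but the differences were small. Their median was 0.02 on the log2 scale, beside 0.01 for all genes, and after centring of the array medians the direction turned for Gata6, Sox7, Foxq1, Dab2 and Cubn. With array weights 1 member, Sox17, passed.

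**Figure D1:**
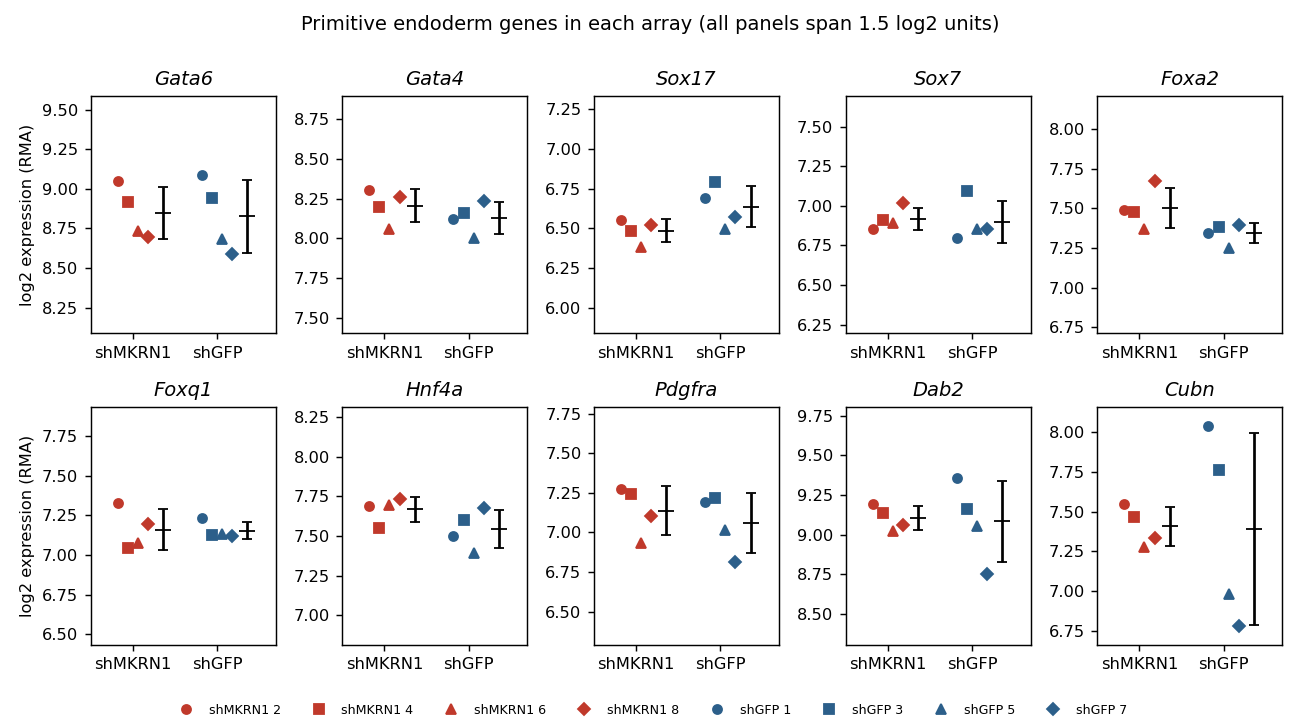
Log2 expression (RMA) of each of the 10 genes in the 4 shMKRN1 arrays (red, left) and the 4 shGFP arrays (blue, right), one symbol per array, with mean and SD as bars. The groups overlap in every panel, and Cubn spreads from 6.78 to 8.04 in shGFP against 7.28 to 7.55 in shMKRN1.

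Among the transcription factors, Gata6, the GATA factor that starts the primitive endoderm programme, measured 9.05, 8.92, 8.73 and 8.70 in shMKRN1 arrays 2, 4, 6 and 8, against 9.09, 8.94, 8.69 and 8.59 in shGFP arrays 1, 3, 5 and 7. Both groups held a pair of higher and a pair of lower arrays, and they overlapped almost completely. The change was 0.02 (SE 0.117; limma adjusted p = 0.949), and its 95% confidence interval was 0.849- to 1.22-fold. Gata4, a later GATA factor of the same lineage, measured 8.30, 8.20, 8.06 and 8.26 in shMKRN1 and 8.12, 8.16, 7.999 and 8.24 in shGFP. Its arrays interleaved too, with a change of 0.08 (SE 0.0702; adjusted p = 0.633). The interval for Gata4 was narrower, 0.945- to 1.17-fold.

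The 2 SOX factors of the set, which belong to the same SoxF subgroup, did not pass the test. Sox17, needed to maintain the primitive endoderm, measured 6.55, 6.48, 6.38 and 6.52 in shMKRN1, against 6.69, 6.79, 6.49 and 6.57 in shGFP. The shGFP arrays 1, 3 and 7 lay above every shMKRN1 array, while shGFP 5 lay among them. It was the only member with a lower mean in shMKRN1, at -0.15 (SE 0.0721; limma adjusted p = 0.287; exact permutation p = 0.114, n = 4 each). Of the 4 shMKRN1 values 2 were under the silent level of 6.50, where changes are understated. With array weights its change was -0.25 and passed (adjusted p = 0.0348), whereas the other 15 alternatives that tested Sox17 gave adjusted p-values between 0.156 and 0.571. Sox7 ranged from 6.86 to 7.02 in shMKRN1 and from 6.80 to 7.09 in shGFP, a change of 0.02 (SE 0.0719).

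Foxa2, a pioneer factor of visceral and definitive endoderm, came nearest to a difference. It measured 7.49, 7.48, 7.37 and 7.67 in shMKRN1, against 7.35, 7.38, 7.25 and 7.40 in shGFP. Array shMKRN1 8 was the highest of all, and shMKRN1 6 fell within the shGFP range. The change of 0.16 (SE 0.0699) had an unadjusted p of 0.0487 and a limma adjusted p of 0.253, and the exact permutation p was 0.0857 (n = 4 each; smallest possible 0.0286). Without shMKRN1 8 it was 0.10, and without both shMKRN1 8 and shGFP 7 it was 0.12. Hnf4a, the nuclear receptor that drives visceral endoderm differentiation, measured 7.69, 7.55, 7.69 and 7.73 in shMKRN1 and 7.501, 7.60, 7.40 and 7.68 in shGFP. All but 1 of its shMKRN1 arrays lay above all shGFP arrays, with a change of 0.12 (SE 0.0706; adjusted p = 0.384). The forkhead factor gene Foxq1 showed the smallest change of the 10, 0.01 (SE 0.0683), with 7.04 to 7.33 in shMKRN1 and 7.12 to 7.23 in shGFP.

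**Figure D2:**
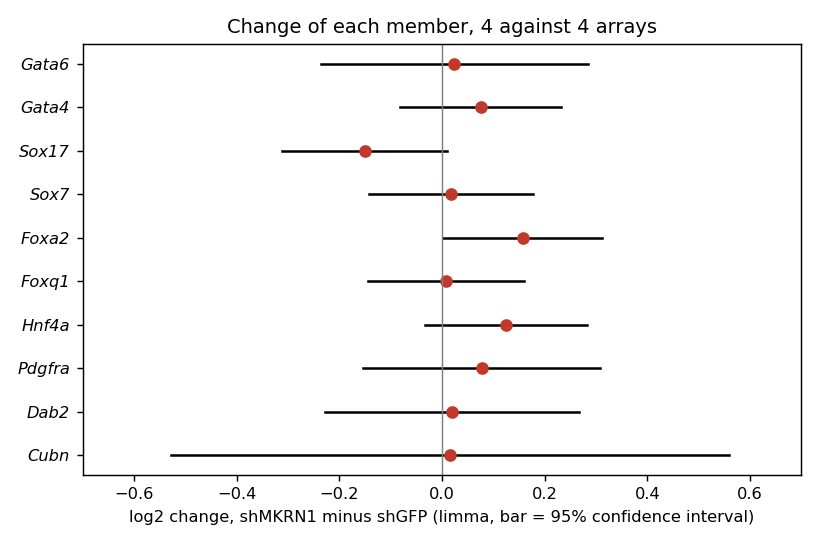
Log2 change of each gene, shMKRN1 minus shGFP, from limma (points), with 95% confidence intervals (bars). Estimates run from -0.15 (Sox17) to 0.16 (Foxa2), and the interval of Cubn, -0.53 to 0.56, is the widest.

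The surface and endocytic markers had means in shMKRN1 and shGFP that lay within 0.08 log2 units of each other, but they differed between arrays. Cubn encodes cubilin, the scavenging receptor with which visceral endoderm takes up maternal proteins and vitamin B12 complexes. It measured 7.55, 7.47, 7.28 and 7.33 in shMKRN1, against 8.04, 7.76, 6.98 and 6.78 in shGFP. The 4 shMKRN1 arrays sat between the 2 high and the 2 low shGFP arrays. The means were 7.41 ± 0.123 in shMKRN1 and 7.39 ± 0.607 in shGFP (SD, n = 4 each), a change of 0.02 (SE 0.243; limma adjusted p = 0.985). Its interval of 0.694- to 1.47-fold leaves a sizeable change in either direction undetected. Within shGFP the highest array exceeded the lowest 2.40-fold, against 1.21-fold within shMKRN1. Its SD in shGFP ranked 8 of all 19937 genes, and its SD in shMKRN1 ranked 6007.

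Dab2, the clathrin adaptor that sorts cubilin and megalin into endocytic vesicles and is needed for an ordered visceral endoderm, measured 9.19, 9.13, 9.02 and 9.06 in shMKRN1. In shGFP it measured 9.36, 9.16, 9.06 and 8.75. As for Cubn, shGFP 1 was the highest and shGFP 7 the lowest of all arrays, with the shMKRN1 arrays between them. The SD was 0.0752 in shMKRN1 and 0.253 in shGFP, where it ranked 681 of all genes. The change of the mean was 0.02 (SE 0.111; adjusted p = 0.955). A second Dab2 probe set, at 4.78 in shMKRN1 and 4.98 in shGFP, lay in the silent range, and averaging it with the first gave -0.09. Pdgfra, the receptor for PDGF-A that primitive endoderm cells need to survive, measured 7.27, 7.24, 6.93 and 7.11 in shMKRN1 and 7.19, 7.22, 7.02 and 6.81 in shGFP. Here too shGFP 7 was the lowest array, and the change was 0.08 (SE 0.104; adjusted p = 0.755). Whether the spread of these genes differs between shMKRN1 and shGFP was not tested. The median SD of all genes was 0.0896 in shMKRN1 and 0.104 in shGFP.

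**Figure D3:**
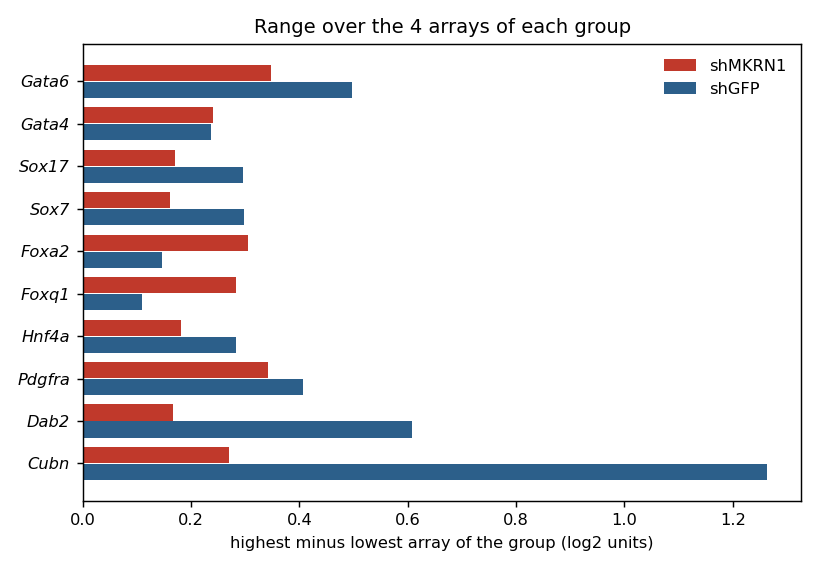
Highest minus lowest array of each group (log2 units) for the 10 genes, shMKRN1 (red, upper bar) and shGFP (blue, lower bar). Cubn and Dab2 have wide ranges in shGFP, 1.26 and 0.61, against 0.27 and 0.17 in shMKRN1, while Foxa2 and Foxq1 range more widely in shMKRN1.

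The array-to-array differences were shared by 4 of the members. For each gene the mean of its own group was subtracted from every array, which removes the difference between shMKRN1 and shGFP, and the remaining deviations were correlated over the 8 arrays. Cubn, Dab2, Gata6 and Pdgfra formed the 6 pairs, of 45, with a Pearson r above 0.8, from 0.815 for Pdgfra with Cubn to 0.917 for Dab2 with Cubn. These 4 genes were singled out after their values were seen, so the coefficients are a description. Each of the 6 pairs was also positive within the 4 shMKRN1 arrays alone (0.817 to 0.999) and within the 4 shGFP arrays alone (0.912 to 0.996). Leaving out any 1 array kept them between 0.667 and 0.992. In shMKRN1, arrays 2 and 4 were above and arrays 6 and 8 below the group mean for all 4 genes. In shGFP, arrays 1 and 3 were above and arrays 5 and 7 below. The axis thus divided the arrays numbered 1 to 4 from those numbered 5 to 8 in both groups. The labels do not say what the numbers stand for, and the part of any shared handling of neighbouring numbers was not tested.

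Gata4, Foxa2 and Hnf4a did not follow this axis. Gata4 had an r of 0.75 with Foxa2 and 0.61 with Hnf4a, but 0.18 with Gata6 and 0.08 with Cubn. Hnf4a had negative coefficients with Dab2 (-0.47), Pdgfra (-0.37) and Gata6 (-0.26). Sox17 lay between, with 0.76 to both Cubn and Pdgfra and 0.60 to Gata4. The 45 pairs had a median r of 0.36. Arrays share other sources of variation. The component that sets shGFP 7 and shMKRN1 8 apart correlated at 0.84 with Hnf4a, 0.68 with Foxa2, -0.73 with Dab2, -0.62 with Gata6 and -0.52 with Cubn. A second component, with 17.0% of the within-group variance and highest in shGFP 1 and shMKRN1 2, correlated at 0.78 with Cubn and 0.76 with Gata6. It was not particular to the axis, with 0.84 for Sox17, 0.66 for Foxq1, 0.60 for Gata4 and 0.41 for Foxa2. The lowest member on it was Sox7, at 0.05. The part of these array-wide components in the pattern was not tested.

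**Figure D4:**
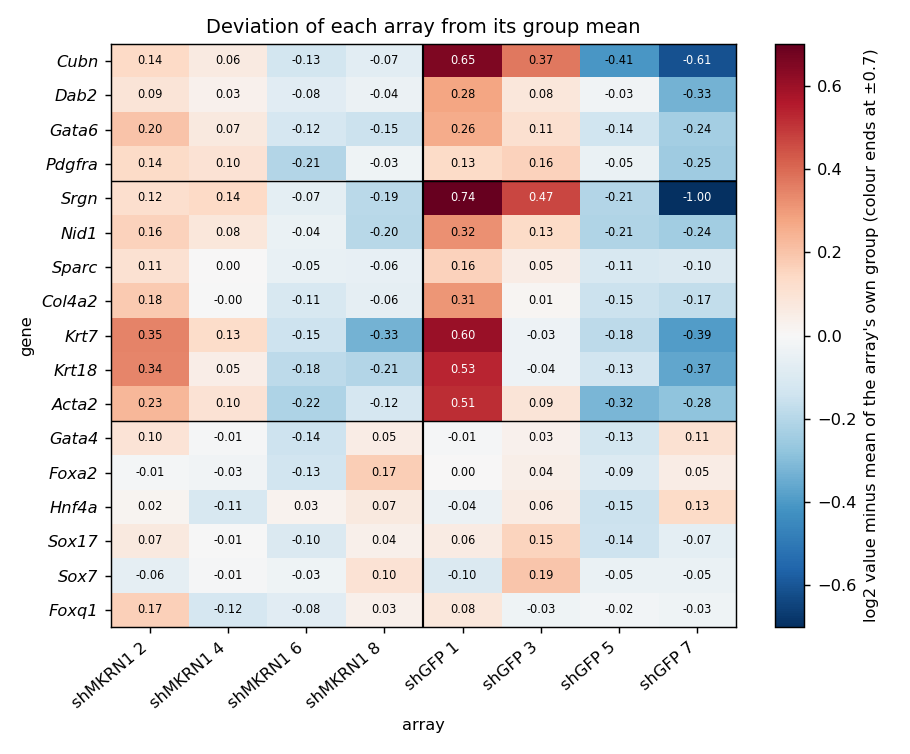
Log2 value of each array minus the mean of its own group, for the 4 co-varying members (top), 7 further genes that deviate with them (middle) and the 6 other members (bottom). In the top and middle blocks shGFP 1 is high and shGFP 7 low, with Srgn at 0.74 and -1.001 and Cubn at 0.65 and -0.61. In the bottom block Sox17 and Foxq1 also have shGFP 1 above shGFP 7, by less, while Gata4, Foxa2, Hnf4a and Sox7 have shGFP 7 the higher.

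Promoter sequences are shown for the 3 of these co-varying members that the RefSeq table (build GRCm38.p6) holds, to set their upstream regions side by side. The table held 9 promoters of 5 members, Cubn, Dab2, Pdgfra, Foxa2 and Hnf4a, each with 250 bases before and 50 after a transcription start. GATA words (AGATAA or TGATAA), a SOX word (AACAAT) and FOXA words (TGTTTAC or TATTTAC) were searched on both strands, and matches are in capitals. The sequences are on the strand of the gene: Dab2 at chr15:6299539-6299838 (plus), Pdgfra at chr5:75152001-75152300 (plus) and Cubn at chr2:13491827-13492126 (minus).
Dab2: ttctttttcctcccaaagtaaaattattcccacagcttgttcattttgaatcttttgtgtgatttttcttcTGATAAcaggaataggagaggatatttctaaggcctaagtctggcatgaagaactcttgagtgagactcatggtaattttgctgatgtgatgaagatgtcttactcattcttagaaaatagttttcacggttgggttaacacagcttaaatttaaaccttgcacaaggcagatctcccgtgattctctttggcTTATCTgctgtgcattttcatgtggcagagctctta
Pdgfra: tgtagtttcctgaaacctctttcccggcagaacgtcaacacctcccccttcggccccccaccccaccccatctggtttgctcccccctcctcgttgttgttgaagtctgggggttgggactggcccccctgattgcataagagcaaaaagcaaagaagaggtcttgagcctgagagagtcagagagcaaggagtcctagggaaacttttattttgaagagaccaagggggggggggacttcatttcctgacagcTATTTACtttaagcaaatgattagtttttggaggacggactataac
Cubn: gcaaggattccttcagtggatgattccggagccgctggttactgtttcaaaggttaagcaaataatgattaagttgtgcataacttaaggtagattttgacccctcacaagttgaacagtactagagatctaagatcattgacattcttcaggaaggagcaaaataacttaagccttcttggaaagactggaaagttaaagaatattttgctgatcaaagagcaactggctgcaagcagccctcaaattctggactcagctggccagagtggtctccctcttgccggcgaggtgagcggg
The Dab2 promoter shown held 2 GATA words, at base -179 and, as the reverse complement TTATCT, at base 15 from the start, and the other of the 2 Dab2 promoters in the table held none of the words. The Pdgfra promoter held 1 FOXA word, at base 5, and the Cubn promoter held none of the words. A GATA word was also present in 1 of the 3 Foxa2 promoters, at base -183, and in 1 of the 2 Hnf4a promoters, at base -52. No matches overlapped. In all, 3 of the 9 promoters held a GATA word, 0 a SOX word and 1 a FOXA word, beside 18.6%, 10.7% and 6.54% of the 32851 promoters in the table. These matches describe letters in the window and say nothing about binding.

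Other genes of the primitive endoderm and yolk sac endoderm passed the test at a rate near that of all genes, 4.49%. Of 32 listed genes 30 were measured, 1 passed the limma test (Fst, higher), 29 did not, and the median change was 0.01, as for all genes. Fst, which encodes the activin-binding protein follistatin, measured 9.74, 9.66, 9.52 and 9.72 in shMKRN1, against 9.09, 9.21, 9.42 and 8.90 in shGFP. All its shMKRN1 arrays were above all shGFP arrays, and it rose 1.42-fold (log2 change 0.50, SE 0.102; adjusted p = 0.0246). The call was lost without shGFP 1 or 3, without shMKRN1 2, 4 or 8, without shGFP 7 and shMKRN1 8 together, and with every probe set tested on its own, at adjusted p-values of up to 0.0778. The collagen chaperone gene Serpinh1 (0.38; adjusted p = 0.0666) and the apolipoprotein gene Apoe (0.18; adjusted p = 0.0803) did not pass. Lama1, a laminin chain gene of the basement membrane that parietal endoderm lays down, stood at 8.59 ± 0.114 in shMKRN1 and 8.91 ± 0.180 in shGFP (SD, n = 4 each; adjusted p = 0.0808).

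Several of these genes deviated with Cubn from array to array. Of the 27 above the silent level, 6 had an r above 0.8 with Cubn, or 22.2%, against 4.35% of all 14011 genes above that level. They were Srgn (0.95), Nid1 (0.93), Sparc (0.92), Col4a2 (0.87), Serpinh1 (0.85) and Lama1 (0.83). The SD of Cubn was 0.607 in shGFP and 0.123 in shMKRN1, so the shGFP arrays weigh most in these coefficients. The same holds for every r with Cubn below, and none of these is given for each group alone. Srgn, which encodes the proteoglycan core serglycin, measured 9.44, 9.46, 9.25 and 9.13 in shMKRN1, against 10.38, 10.10, 9.43 and 8.64 in shGFP. Its SD in shGFP, 0.777, was the highest of all 19937 genes, and the highest shGFP array exceeded the lowest 3.35-fold. The others include genes of basement membrane proteins, namely nidogen (Nid1), a type IV collagen chain (Col4a2) and a laminin chain (Lama1). Nid1 measured 10.73, 10.65, 10.53 and 10.37 in shMKRN1 and 11.23, 11.04, 10.70 and 10.66 in shGFP, so 3 of its 4 shMKRN1 arrays lay below all shGFP arrays (adjusted p = 0.184). A negative r was found for 11 of the 27 genes, beside 6527 of all 14011 genes above the silent level. The 11 included Thbd (-0.69) and Apoe (-0.67).

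Some markers of other cell types deviated with Cubn, so the axis was not limited to primitive endoderm genes. Of 8 trophectoderm markers above the silent level, 3 had an r above 0.8 with Cubn (Krt7, Krt18 and Hand1). The r was negative for 1, Cdx2 (-0.34). Unlike Cubn, Krt7 and Krt18 lay just below their group mean in shGFP 3 (-0.033 and -0.035). The trophectoderm list's mean level ranged from 8.88 to 9.21 in shMKRN1 and from 8.69 to 9.11 in shGFP, and Elf5 alone of 9 lay in the silent range. Krt18, a keratin of simple epithelia, measured 11.58, 11.28, 11.05 and 11.03 in shMKRN1, against 11.67, 11.10, 11.00 and 10.77 in shGFP. Of 11 fibroblast markers above the silent level 1 had an r above 0.8 with Cubn, the smooth muscle actin gene Acta2 (0.91). Of the 11, 7 had a negative r, beside 6527 of all 14011 genes above that level. The fibroblast list's mean level ranged from 7.28 to 7.47 in shMKRN1 and from 7.29 to 7.43 in shGFP, and Postn, Lum, S100a4 and Prrx1 lay in the silent range. The mean level of the 10 stem cell markers stayed between 11.70 and 11.76 in shMKRN1 and between 11.67 and 11.71 in shGFP. Among the listed epiblast and pluripotency factors 4 of 15 had an r above 0.8 with Cubn (Tbx3, Zfp42, Nr0b1 and Nr5a2). With Gata6, the keratin genes Krt7, Krt8 and Krt18 and the factor gene Gata3 had an r of 0.94, 0.95, 0.94 and 0.90. For the other trophectoderm markers above the silent level, the r with Gata6 was 0.91 (Hand1), 0.70 (Tead4), 0.49 (Tfap2c) and -0.26 (Cdx2). High coefficients were more common with Gata6, as 2.53% of 14011 genes had an r above 0.9 with it, against 0.956% with Cubn. By limma, 1 of the 9 trophectoderm markers rose (Tfap2c, median of the list 0.20), as did 2 of the 15 fibroblast markers (Pdgfrb and Col1a1, median 0.05) and 1 of the 10 stem cell markers (Nanog, median 0.02), and none fell. Tfap2c kept its call in 3 and Col1a1 in 1 of the 8 fits without 1 array. The part of other cell types in the pattern was not tested.

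The 10 genes whose deviations were most like the mean deviation of all 10 members had a Pearson r between 0.949 and 0.972 over the 8 arrays. They were Sfxn3, Chst5, Plcl1, Smagp, Nol3, Rbms2, Rab43, Scube3, Plet1 and Slc39a13. Of 14012 genes above the silent level, 0.564% had an r above 0.9. The ranking rested on single arrays: without any 1 array, between 0 and 4 of the 10 were ranked again, and without shGFP 1 none was.

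Genes around the members in the same pathways were set beside them from the same fit. FGF4 to ERK signalling genes, which induce the primitive endoderm, were 2 of 20 higher and 0 lower by limma, with a median change of 0.10. Fgfr2, the FGF receptor typical of primitive endoderm precursors, rose 1.29-fold, with 9.27, 9.42, 9.39 and 9.24 in shMKRN1 and 9.03, 9.005, 8.997 and 8.84 in shGFP (adjusted p = 0.0139; 0.0557 without shMKRN1 6). Map2k1, which encodes the ERK kinase MEK1, rose 1.27-fold, with 10.14, 10.05, 10.16 and 10.13 in shMKRN1 and 9.82, 9.79, 9.73 and 9.79 in shGFP (adjusted p = 0.00541). For both genes every shMKRN1 array exceeded every shGFP array. The feedback inhibitor gene Spry4 was at -0.22 and did not pass (adjusted p = 0.0540).

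Of 15 listed epiblast and pluripotency factors, some of which oppose the primitive endoderm, 2 rose and 0 fell, with a median change of -0.002. Nanog, the counterpart of Gata6, stood at 12.55 ± 0.0519 in shMKRN1 and 12.31 ± 0.0448 in shGFP (SD, n = 4 each; log2 change 0.25, SE 0.0501; adjusted p = 0.0256). Its call was lost after median centring, with every probe set tested on its own, and without shGFP 3 or shMKRN1 2, 4 or 6 (up to 0.0974). Klf2, a naive pluripotency factor gene, rose by 0.32 (adjusted p = 0.0369) and kept its call in 1 of the 8 fits without 1 array. Tbx3, at 0.37, did not pass (adjusted p = 0.0605).

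The ligands of PDGFRA and the related receptor gene divided. Pdgfc, a ligand gene, was lower at 9.13, 9.18, 9.002 and 8.90 in shMKRN1, against 9.47, 9.43, 9.30 and 9.28 in shGFP (log2 change -0.31; adjusted p = 0.0458). Pdgfrb, the other PDGF receptor gene and a marker of mesenchyme, was higher at 7.81, 7.60, 7.57 and 7.82 in shMKRN1, against 7.25, 7.45, 7.29 and 7.42 in shGFP (0.35; adjusted p = 0.0342). In both genes the groups did not overlap, but each kept its call in only 1 of the 8 fits without 1 array (adjusted p up to 0.137 for Pdgfc and 0.101 for Pdgfrb). Pdgfa, whose product is the main ligand of PDGFRA in the blastocyst, was at -0.19 and did not pass (adjusted p = 0.195), nor did Pdgfb and Pdgfd.

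Partners of DAB2 and cubilin in endocytosis were 0 of 13 past the limma threshold, beside 4.49% of all genes. The unadjusted limma p was under 0.05 for 3 of them, all higher (Eps15, Itsn1 and Myo6), beside 19.5% of all genes. Lrp2, the gene of megalin, stood at 10.01 ± 0.128 in shMKRN1 and 9.94 ± 0.157 in shGFP, and Amn, the gene of the cubilin anchor amnionless, at 7.25 ± 0.214 in shMKRN1 and 7.25 ± 0.160 in shGFP (SD, n = 4 each). Neither varied with Cubn as Dab2 did, with an r of 0.42 for Lrp2 and -0.14 for Amn. With Dab2, Pdgfra and Gata6, the r of Lrp2 was higher, at 0.69, 0.66 and 0.63, and that of Amn was -0.34, -0.08 and -0.23.

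Of 14 paralogs of the members, Kit rose and Foxf2 fell. Kit, a receptor tyrosine kinase gene of the PDGF receptor family, rose 1.39-fold, with 9.48, 9.44, 9.54 and 9.40 in shMKRN1 and 9.05, 9.08, 9.001 and 8.81 in shGFP (adjusted p = 0.00513). Foxf2 stood at 6.35 in shMKRN1 and 6.63 in shGFP, around the silent level, and its adjusted p lay just under the threshold of 0.05. It kept its call in 3 of 16 alternatives. Dab1, the paralog of Dab2, was at -0.25 with no overlap between shMKRN1 and shGFP, and just missed the threshold (limma adjusted p = 0.0506). The GATA paralogs Gata1, Gata2, Gata3 and Gata5 and the endoderm factor genes Foxa1 and Foxa3 did not pass, with adjusted p-values between 0.394 and 0.954.

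Several members also mark definitive endoderm, which forms from the primitive streak. Of 9 such markers 3 rose (Mixl1, Eomes and Lhx1) and 0 fell, with a median change of 0.15, while Foxa2 and Sox17, which definitive endoderm shares with primitive endoderm, are described above. Across all genes 3.66% were higher by limma. The listed gene T was not analysed. Lhx1 measured 7.01, 7.11, 6.84 and 7.09 in shMKRN1 and 6.40, 6.54, 6.19 and 6.46 in shGFP. Its shGFP mean of 6.40 lay under the silent level of 6.50. Mixl1, a homeobox gene of the streak, measured 9.47, 9.22, 8.90 and 9.05 in shMKRN1, against 7.18, 7.43, 7.89 and 7.49 in shGFP, and rose 3.17-fold with no overlap (limma adjusted p = 0.000882). In shGFP its highest array was shGFP 5, which was low for Cubn, and its r with Cubn over the 8 arrays was -0.42. Within shMKRN1, however, the arrays had the same order for Mixl1 as for Cubn (7.55, 7.47, 7.28 and 7.33 in arrays 2, 4, 6 and 8). Of 7 anterior visceral endoderm genes, Lhx1 alone passed, with Otx2 (0.23; adjusted p = 0.115) and Nodal (0.20; adjusted p = 0.185) next.

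**Figure D5:**
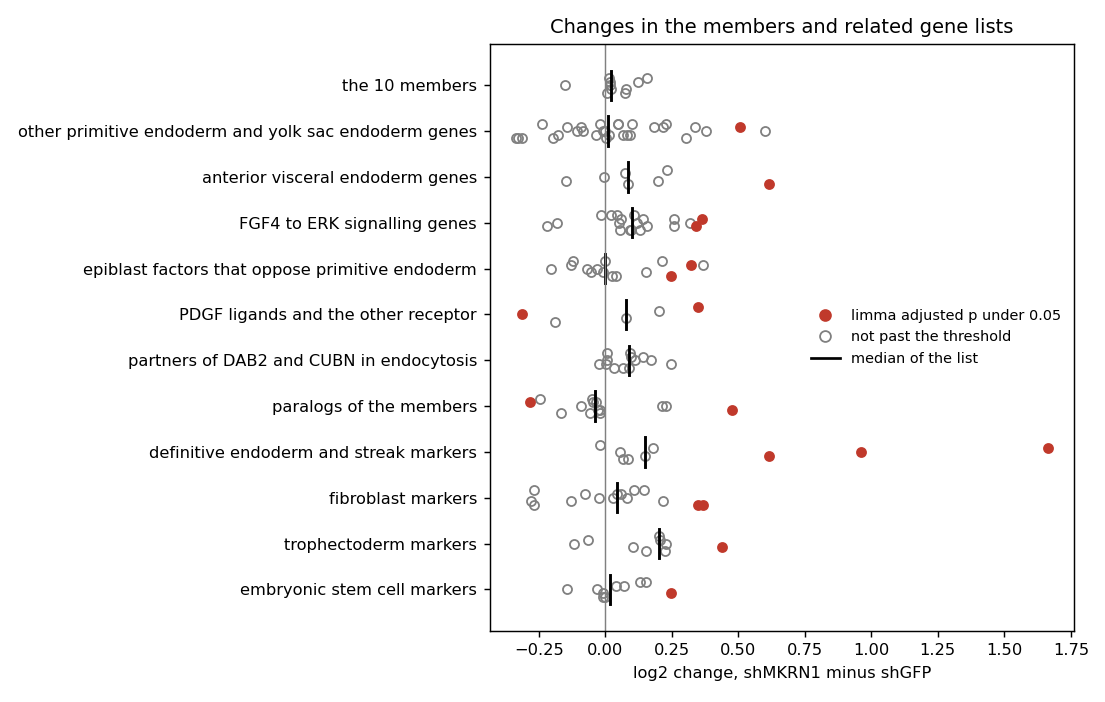
Log2 change, shMKRN1 minus shGFP, of every measured gene of the 10 members and of 11 related lists (red, limma adjusted p under 0.05; open, not past the threshold; black line, median of the list). The members lie between -0.15 and 0.16 around 0, while Mixl1 reaches 1.66 among the definitive endoderm and streak markers.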

How the data were processed

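RNA of 8 samples was measured on Affymetrix gene arrays. The authors deposited log2 expression values for 34760 probe sets, and the submitters' processing notes name RMA, with neither version nor build given in the sources used here. RMA draws arrays towards one distribution, which hides a shift common to most genes and compresses the differences of dim probe sets. Array medians still lay between 7.14 and 7.24. Of the probe sets, 21640 had 1 gene symbol in the platform annotation, 1321 had several and 11799 were not named. The highest of a gene's probe sets was kept, which left 19937 genes. The number of arrays limits the precision. Differences were fitted by limma (version 3.58.1, R version 4.3.3; lmFit and eBayes with group as the term and no filter), two-sided, with Benjamini-Hochberg adjustment over all 19937 genes and a threshold of 0.05. The fit was tested on simulated data. For single genes an exact permutation test, two-sided, enumerated all 70 ways to divide the arrays. Members, gene lists and promoter words were chosen with earlier results of these data known. Named genes were the members, every list gene that passed and some of the 3 genes of each list with the smallest p. Genes named for their deviations, and the pairs of members, were chosen after their values were seen. Alternatives covered scaling, filter, probe set choice, variance model and left-out arrays. Some genes of the lists were not analysed here.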

Additional observations from a re-analysis of the deposited data

Results flagged for a closer look

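Foxq1 in array shGFP 1, at 7.23, lay apart from the other shGFP arrays (7.12 to 7.13). Its gap to the nearest array was 0.894 of the group's range, above Dixon's 95% critical value for 4 samples. Of 20 groups examined (10 genes in each of shMKRN1 and shGFP) this was the only one past that value, and chance alone gives about 1 in 20. The range itself was narrow, and the change of Foxq1 between shMKRN1 and shGFP did not pass with or without this array.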

How the results depend on the processing

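The count of 0 members past the threshold held under 16 of 17 alternatives, the 8 fits without 1 array included, but the one with genes above the median level only tested just 3 members (Gata4, Gata6 and Dab2). Array weights gave 1, Sox17, at -0.25. The count of 896 genes over the whole array was 1595 with genes above the median level only and 521 with every probe set tested on its own. It was 1548 with an intensity trend, 2757 with array weights, and 309 to 852 without 1 array. Without shGFP 7 and shMKRN1 8 together it was 917. The cause of these differences was not tested. Changes of members near 0 turned sign. With quantile normalization these were Gata6 (-0.042) and Dab2 (-0.036); with median centring Gata6 (-0.00038), Sox7 (-0.0066), Foxq1 (-0.017), Dab2 (-0.0042) and Cubn (-0.0083); with the mean of a gene's probe sets Dab2 (-0.092). With array weights they were Gata6 (-0.061), Sox7 (-0.085), Foxq1 (-0.013), Pdgfra (-0.054), Dab2 (-0.060) and Cubn (-0.235). Without shGFP 7 and shMKRN1 8 they were Gata6 (-0.0048), Sox7 (-0.031), Foxq1 (-0.014), Dab2 (-0.076) and Cubn (-0.16). Without 1 array the changes ranged from -0.055 to 0.11 for Gata6, -0.017 to 0.082 for Sox7, -0.048 to 0.046 for Foxq1, -0.0052 to 0.15 for Pdgfra, -0.090 to 0.11 for Dab2 and -0.19 to 0.23 for Cubn, while Gata4 (0.032 to 0.12), Foxa2 (0.099 to 0.20), Hnf4a (0.075 to 0.17) and Sox17 (-0.20 to -0.10) kept their direction. The number of members above the silent level was 6 at the 99th percentile in place of 10 at the 95th. No paired analysis was made because the 2 groups share no replicate numbers and the labels tie no shMKRN1 sample to a shGFP sample. A block on neighbouring numbers was not fitted, so the intervals include any variation that neighbouring arrays shared. The correlations between deviations without 1 array were added after the data were seen. Signal over background limits what can be seen of Sox17 and other dim genes, whose changes are compressed.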

Other observations

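Bmp2, a BMP ligand gene of visceral endoderm, was named after its values were seen. It measured 7.67, 7.08, 6.75 and 6.93 in shMKRN1, against 6.67, 6.74, 6.55 and 6.09 in shGFP. It had the largest mean difference of the listed yolk sac genes, 0.60 (SE 0.196), with no overlap between shMKRN1 and shGFP, but did not pass (limma adjusted p = 0.122). Its SD in shMKRN1, 0.398, ranked 23 of all 19937 genes, with shMKRN1 2 the highest array, and its deviations had an r of 0.86 with Pdgfra and 0.81 with Gata6.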
